A study of Mus musculus with 18 samples.

Results

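RNA of primary cholangiocytes, which form the epithelium of the bile ducts, was compared between mice with polycystic liver disease (PLD) and wild-type (WT) mice at 1 month, with 3 libraries of each genotype, which are 6 of the 18 libraries of the series. The members were chosen by their titles, genotype and time, and all genes were tested. Both genotypes are labelled as 1 month after tamoxifen induction, and no compound was given. The labels name no inactivated gene, no promoter that drives a recombinase, no strain and no age. Cells came from a collagenase-perfused liver whose parenchyma had been stripped off, leaving the biliary tree, and were pulled out with magnetic beads carrying an antibody to EpCAM, so the beads select on one of the surface proteins described below. The labels do not say whether the 3 replicates of a group are separate mice, pooled mice or repeat preparations, so the p-values reflect no more than the scatter among these libraries, part of which may be technical.

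Cholangiocytes form a polarised single layer around the duct lumen. Tight junctions and desmosomes hold the layer together, a basement membrane of laminins and collagen IV lies beneath it, and keratins fill its cytoskeleton. In polycystic liver disease the ducts widen into cysts lined by the same kind of cell, and cAMP signalling, fluid secretion and cell division are the processes most often studied there. The comparison at 1 month asks how the cells differ between the genotypes at the earlier of the 2 sampled times.

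Total counts per library ran from 17746740 to 29277311, and 24494 to 27970 genes had at least 1 count in a library. Levels are CPM, counts divided by a scaled library size, changes are log2 fold changes of PLD against WT with their standard error (SE), and a gene is called when its edgeR quasi-likelihood p, adjusted over all 17749 genes tested by the Benjamini-Hochberg method, is under 0.05. CPM is not divided by gene length, so levels are compared between libraries and not between genes. Reads were counted without strand, so reads of overlapping genes on opposite strands cannot be told apart. In a bulk library, fewer cells of a type and less RNA per cell of that type cannot be told apart.

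WT replicate 3 stood apart from the other 2 WT libraries in its cell type markers. The summed level of the 17 smooth muscle contractile genes was 18062 and 10459 CPM in WT replicates 1 and 2 but 2623 CPM in replicate 3, below the 3262 to 3754 CPM of the PLD libraries. The 20 fibroblast and stellate cell markers summed to 20862, 24904 and 3929 CPM in WT replicates 1 to 3 and to 12654 to 17906 CPM in PLD. The 25 cholangiocyte markers went the other way, with 13410, 9586 and 19350 CPM in the WT libraries and 15366 to 20137 CPM in PLD. Alb, the albumin gene of hepatocytes, stood at 282, 367 and 1958 CPM in WT and at 2667, 3316 and 1992 CPM in PLD. Of the 17 tested hepatocyte markers, Alb included, 8 had changes above 0 and 9 below, with a median of -0.19, and 0 were called. Without WT replicate 3 the median was 0.42, with 3 markers called higher and 0 lower. Every library held the cholangiocyte genes Krt19, at 255 CPM or more, and Epcam, at 186 CPM or more. In WT replicates 1 and 2, however, the summed fibroblast markers were above the summed cholangiocyte markers. The same held in PLD replicate 3, with 17906 against 15366 CPM. The 2 sums are of different genes, not scaled by gene length, so their order gives no share of cells. It does show that libraries of both genotypes also held RNA with markers of other cells. Results are given with all 6 libraries, and the counts of called genes in a list again without WT replicate 3.

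**Figure D1:**
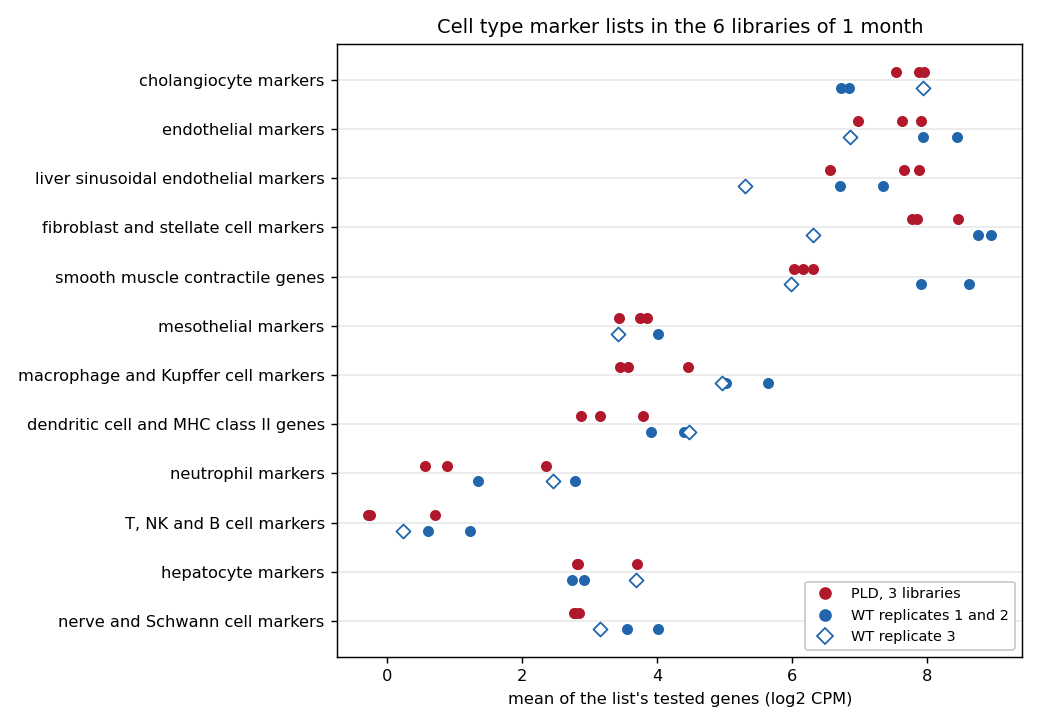
Mean log2 CPM of the tested genes of 12 cell type marker lists (horizontal axis) in each of the 6 libraries. Red points are the 3 PLD libraries, filled blue points WT replicates 1 and 2, and open diamonds WT replicate 3, which lies with the PLD libraries for cholangiocyte markers (7.95) and smooth muscle genes (5.99) and below all others for fibroblast markers (6.32).

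With all 6 libraries, 892 of 17749 genes were called (5.03%), of which 533 were higher (3%) and 359 lower (2.02%) in PLD. These calls rest on a spread estimated from 12 libraries, those of 2 months included. A fit of the 6 libraries alone called 29 genes, 24 higher and 5 lower, and 80 of the 96 named genes called with the shared spread lost the call there. Among the 16 that kept it were Anxa8, Psca, Msln, Esr1, Krt23, Col4a3, Wnt7a, Grhl1, Ovol1, Insig1, Kcnab1 and Scube3. Without WT replicate 3, 3485 of 18521 genes were called (18.8%), 1804 higher (9.74%) and 1681 lower (9.08%). All 533 of the higher genes and 355 of the 359 lower genes remained called without that library. Among the 1804 genes called higher without it, WT replicate 3 itself lay below all PLD libraries for 989 (54.8%), within their range for 455 (25.2%) and above them for 360 (20%). Among the 1681 called lower without it, it lay above all PLD libraries for 680 (40.5%), within their range for 420 (25.0%) and below them for 581 (34.6%). Leaving out other libraries removed calls: of the 892 genes, 111, 99 and 696 remained without PLD replicates 1, 2 and 3 in that order, and 270 and 254 without WT replicates 1 and 2. In all 6 of these fits 94 genes (10.5%) were called, 84 higher and 10 lower, and they are pointed out below as called in all 6 fits. The list counts below are to be read beside the shares of all genes. These are 3% higher and 2.02% lower with all libraries, and 9.74% and 9.08% without WT replicate 3.

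Several of the largest rises were in genes of surface and membrane-binding proteins. Anxa8 (ENSMUSG00000021950.15, mm10, chromosome 14 from 34085981 to 34100571), an annexin that binds membrane lipids in the presence of calcium, had 114, 108 and 49.0 CPM in PLD replicates 1 to 3 and 3.80, 2.23 and 2.55 CPM in WT replicates 1 to 3. PLD replicate 3 was the lowest PLD library, and the change was 4.98 ± 0.38 (edgeR adjusted p = 0.000277). Psca (ENSMUSG00000022598.6, chromosome 15 from 74714839 to 74717069), a surface protein anchored by a lipid tail, showed the same order, with 25.7, 25.5 and 8.39 CPM in PLD. Its WT levels of 0.0863, 0.415 and 0.25 CPM rest on 2, 11 and 5 counts, so its change of 6.24 ± 0.70 (edgeR adjusted p = 0.00215) is the least certain in size of these. Msln, the gene of mesothelin, stood at 556, 554 and 278 CPM in PLD and at 21.8, 17.3 and 23.5 CPM in WT (4.47 ± 0.32). Mesothelin is also a marker of the mesothelium, the covering layer of organs. Of the 13 tested mesothelial markers Msln and Krt19 rose and 0 fell, against 3 and 2 without WT replicate 3, and Wt1 (2.80, 3.10 and 6.46 CPM in PLD against 18.1, 13.1 and 1.6 in WT) and Upk3b (5.78, 6.10 and 7.74 against 11.2, 5.62 and 8.95) were not called. Without that library Wt1 was lower (-1.92, edgeR adjusted p = 0.00566). Tspan8, a tetraspanin, was high in PLD at 1053, 1078 and 667 CPM against 163, 138 and 218 CPM (2.43 ± 0.26). Anxa8, Psca, Msln and Tspan8 were called in all 6 fits. They are among the 5 that rose of the 16 genes listed as surface proteins of cyst epithelium, of which 0 fell, against 9 and 0 without WT replicate 3, and the median change of the 16 was 0.66 against -0.05 over all genes. The list was drawn up with earlier results of these libraries known, so its count is no independent evidence of a direction. Epcam, against whose protein the beads are directed, had 475, 442 and 317 CPM in PLD and 195, 186 and 413 CPM in WT. The groups overlapped at WT replicate 3 and the gene was not called (0.64 ± 0.30, edgeR adjusted p = 0.219), whereas without that library it was higher by 1.11 (edgeR adjusted p = 0.00612).

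**Figure D2:**
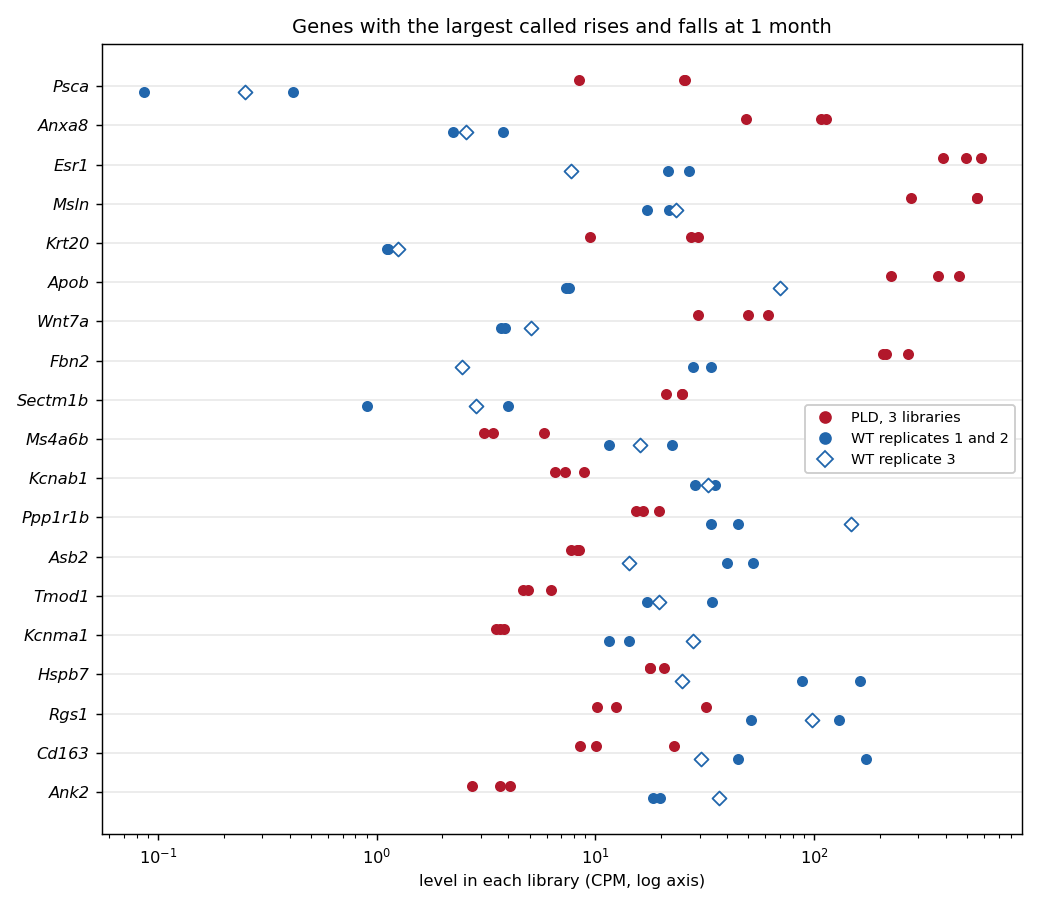
Level in each library (CPM, log axis) of 9 of the 10 genes with the largest called rises and of the 10 with the largest called falls among genes whose groups did not overlap. Red points are the 3 PLD libraries, filled blue points WT replicates 1 and 2 and open diamonds WT replicate 3. Anxa8 and Msln separate the genotypes with all 3 WT libraries close together, while for Apob, Hspb7 and Cd163 WT replicate 3 (70.1, 24.8 and 30.4 CPM) lies nearest to the PLD libraries.

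Esr1 (ENSMUSG00000019768.16, chromosome 10 from 4611593 to 5005614), the gene of oestrogen receptor alpha, had 578, 495 and 387 CPM in PLD and 21.4, 26.8 and 7.75 CPM in WT. The lowest PLD library was far above the highest WT library, and the change was 4.70 ± 0.42 (edgeR adjusted p = 0.00074, called in all 6 fits). Pgr, the progesterone receptor gene, which oestrogen receptor alpha switches on in the reproductive tract, went the other way at low levels, with 0.458, 0.102 and 0.345 CPM in PLD and 1.99, 1.55 and 2.85 CPM in WT (-2.86 ± 0.55, edgeR adjusted p = 0.0198). The call of Pgr was lost without PLD replicate 1, PLD replicate 2 or WT replicate 1. Thrb, a thyroid hormone receptor gene, was lower as well (-1.34 ± 0.30), and its call was lost without PLD replicate 1 or 2 or without WT replicate 1 or 2. Of the 20 steroid and nuclear hormone receptors on the list, 1 rose (5%) and 2 fell (10%), where 3% and 2.02% of all genes did so. Without WT replicate 3, 2 rose and 3 fell, where 9.74% and 9.08% of all genes did so.

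Keratins were higher, both those typical of bile ducts and those rare there. Of 10 tested keratins 6 rose and 0 fell, and the median change was 1.69. Krt23 (ENSMUSG00000006777.7, chromosome 11 from 99477974 to 99493137), a type I keratin, had 337, 324 and 295 CPM in PLD and 102, 84.9 and 77.0 CPM in WT. Replicates lay close together within each genotype, and the change of 1.85 ± 0.17 (edgeR adjusted p = 0.00074) was called in all 6 fits. Krt7, a keratin of ducts and glands, had 624, 643 and 342 CPM against 84.3, 59.9 and 154 CPM (2.43 ± 0.36), and Krt20, better known from gut and urothelium, had 27.3, 29.6 and 9.42 CPM against 1.12, 1.13 and 1.25 CPM (4.24 ± 0.49). Both were called in all 6 fits. Krt19, the keratin by which the purity of the preparation was stained, had 1662, 1664 and 859 CPM in PLD and 421, 255 and 566 CPM in WT. It was called with all libraries (1.75 ± 0.33, edgeR adjusted p = 0.0187) but not without PLD replicate 1 or 2 or WT replicate 1 or 2. Krt4 had 2.40, 1.43 and 0.987 CPM in PLD, and its WT values of 0.0432, 0.0755 and 0.05 CPM are 1, 2 and 1 counts, which give no usable fold. The sixth was Krt80 (1.39 ± 0.24), whose call was lost without PLD replicate 2 or WT replicate 1, as that of Krt4 was without PLD replicate 1. Krt8 and Krt18, the keratin pair of simple epithelia, did not pass the test with all libraries (0.90 and 0.86) and were called without WT replicate 3, when 9 of 11 tested keratins were higher.

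Junction genes were higher in PLD, and more so without WT replicate 3. Of 20 claudins and other tight junction genes 8 rose and 0 fell (median 0.70), and without that library 14 rose and 1 fell (median 1.23). Cldn4, a claudin that seals the space between epithelial cells, had 3339, 2739 and 1993 CPM in PLD and 837, 749 and 660 CPM in WT (1.85 ± 0.32, edgeR adjusted p = 0.0134). Its groups did not overlap, although the call was lost without PLD replicate 1, PLD replicate 2 or WT replicate 2. Cldn23 had 60.6, 69.8 and 45.5 CPM against 12.2, 13.1 and 22.8 CPM (1.87 ± 0.32). Cldn3 (1.23 ± 0.28) and Ocln, the gene of occludin (1.51 ± 0.32), rose too, as did the scaffold genes Tjp1 (0.57 ± 0.13) and Tjp3 (1.38 ± 0.27) and the adhesion gene F11r (0.90 ± 0.22). Cldn23 and each of the 5 genes after it lost its call without PLD replicate 1 or 2 or without WT replicate 1 or 2. Claudins did not all move together: Cldn1, Cldn2, Cldn10 and Cldn15 had lower levels in every PLD library than in every WT library without being called (-2.03, -1.38, -1.26 and -0.66), and without WT replicate 3 Cldn1 was the tight junction gene that fell. Among 17 cadherin and desmosome genes 4 rose and 0 fell, against 15 and 0 without WT replicate 3. They were Perp, a desmosome gene that p53 also activates (1.35 ± 0.26), Pkp1, a plakophilin at 5.55, 4.23 and 2.96 CPM in PLD and 0.561, 0.0755 and 0.2 CPM in WT, Jup, the gene of plakoglobin (0.69 ± 0.15), and Ctnna1, the gene of alpha-catenin (0.56 ± 0.13). Each lost its call without PLD replicate 1, PLD replicate 2 or WT replicate 2, and all but Pkp1 also without WT replicate 1. Of 11 polarity genes Rab11fip1, which acts in recycling of membrane to the surface, was the one that rose (1.62 ± 0.26, call lost without PLD replicate 1), against 9 of 11 without WT replicate 3.

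Cholangiocyte markers as a list depended on WT replicate 3 in the same way. Of 25 markers 4 rose, Tspan8, Krt7 and Krt19 among them, and 0 fell, with a median of 0.47, while without that library 16 rose and the median was 1.11. Sox9, the transcription factor gene that marks the biliary lineage, had 263, 292 and 209 CPM in PLD and 132, 141 and 331 CPM in WT. WT replicate 3 was its highest library, and Sox9 was not called with it (0.34 ± 0.39) or without it (0.91, edgeR adjusted p = 0.0793).

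In the basement membrane, the laminin chains of epithelial anchoring and an unusual pair of collagen IV chains were higher. Lamb3 (ENSMUSG00000026639.18, chromosome 1 from 193207699 to 193343878), a chain of laminin-332, had 265, 298 and 179 CPM in PLD and 37.3, 39.0 and 72.3 CPM in WT. The groups did not overlap and the change of 2.32 ± 0.27 (edgeR adjusted p = 0.00245) was called in all 6 fits. Lama3, another chain of the same trimer, rose by 1.22 ± 0.24 and Lama5, the alpha chain of laminin-511, by 0.84 ± 0.17, at 1522, 1351 and 977 CPM against 712, 695 and 741 CPM. Col4a3 had 91.9, 97.8 and 90.2 CPM in PLD and 21.2, 28.4 and 33.2 CPM in WT (1.76 ± 0.20), and Col4a4, which lies next to it in the genome and forms a network with it, had 118, 120 and 139 CPM against 44.3, 67.2 and 35.0 CPM (1.37 ± 0.22). Both collagen genes were called in all 6 fits, while Lama3 and Lama5 lost the call without PLD replicate 1, PLD replicate 2 or WT replicate 1, and Lama5 also without WT replicate 2. Col4a6, a chain of a different collagen IV network, fell (26.9, 28.3 and 22.0 CPM against 120, 75.3 and 34.1 CPM, -1.57 ± 0.34), with its call lost without any library other than WT replicate 3. Of the 20 genes of laminins and basement membrane 5 rose and 1 fell (median 0.18), and without WT replicate 3 the counts were 6 and 3 (median -0.06). The median of this list thus changed sign with that library while the genes named here kept their direction.

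Wnt ligands are secreted lipid-modified proteins that bind Frizzled receptors, and Wls carries them to the cell surface. Wnt7a (ENSMUSG00000030093.7, chromosome 6 from 91363981 to 91411363) had 49.8, 61.3 and 29.4 CPM in PLD and 3.71, 3.85 and 5.10 CPM in WT, all 3 WT libraries lying close together (3.47 ± 0.32, edgeR adjusted p = 0.00074). Wnt9a had 33.9, 44.8 and 23.1 CPM against 11, 9.78 and 8.80 CPM (1.78 ± 0.24), and these 2 ligands were called in all 6 fits. Wnt7b rose by 1.77 ± 0.36 with WT replicate 3 (33.8 CPM) nearest to PLD (94.5, 91.7 and 51.7 CPM), and Wls by 0.76 ± 0.16. Both lost the call without PLD replicate 1, PLD replicate 2 or WT replicate 2, and Wnt7b also without WT replicate 1. Those were 4 of 16 tested genes of the ligand list, of which 0 fell with all libraries, while 5 rose and 2 fell without WT replicate 3. The 2 were Wnt6 and Rspo1. The list did not move as a whole: 7 of the 16 had values above 0 and 9 below. Its median was -0.14, and -0.26 without WT replicate 3. Without overlap between the groups 6 were higher and 3 lower in PLD, where 14.2% and 12.3% of all genes were. Among 18 receptors and feedback targets, Axin2, a feedback inhibitor (1.21 ± 0.30), and Tcf7, a transcription factor of the pathway (1.07 ± 0.24), rose and 0 fell. Both calls were lost without any one PLD library or without WT replicate 1. Nkd2 (1.83), Notum (2.15) and Ccnd1 (1.37) had values above 1 without passing the test, although Nkd2 and Ccnd1 were among the 6 of 20 that rose without WT replicate 3, and Lgr5, Sp5 and Lef1 had values below 0.

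Of 48 tested transcription factors of epithelium and lineage 4 rose and 0 fell. Grhl1, a grainyhead factor that binds junction genes, had 45.4, 41.7 and 43.6 CPM in PLD and 7.21, 5.78 and 8.55 CPM in WT (2.60 ± 0.37), and Ovol1, a zinc finger factor of epithelial differentiation, had 77.8, 104 and 56.9 CPM against 12.4, 17.4 and 15.7 CPM (2.39 ± 0.28). In both genes the replicates of a genotype lay together and the call was made in all 6 fits. Klf5 (1.5 ± 0.30) and Tfcp2l1 (1.49 ± 0.34) rose with WT replicate 3 closest to PLD, and both lost the call without PLD replicate 1 or 2 or WT replicate 1 or 2. Without WT replicate 3, 18 factors rose and 5 fell.

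**Figure D3:**
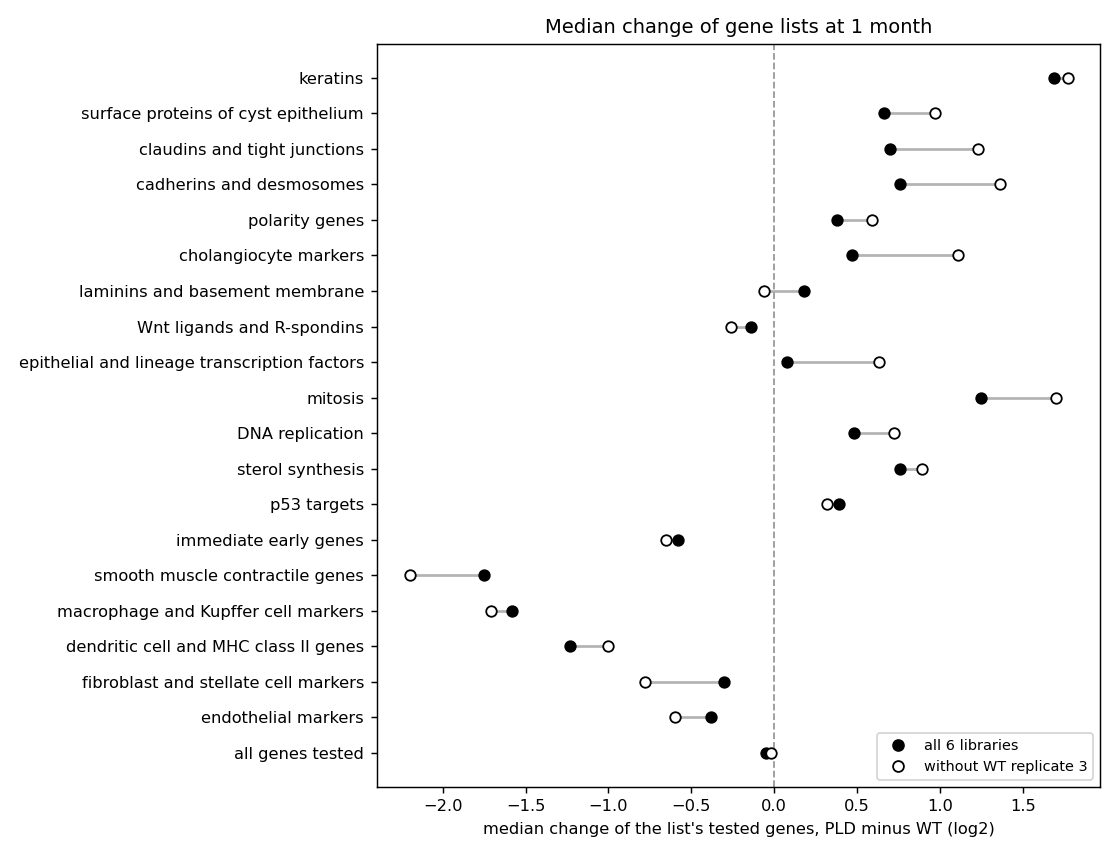
Median log2 change, PLD against WT, of the tested genes of 19 lists and of all genes. Filled circles are medians with all 6 libraries and open circles medians without WT replicate 3. Keratins move little with that library (1.69 and 1.77), cholangiocyte markers rise from 0.47 to 1.11, smooth muscle genes fall from -1.75 to -2.20, and the laminin list crosses 0.

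Genes of mitosis had higher levels in PLD, although few passed the test one by one. Cdc20 (ENSMUSG00000006398.15, chromosome 4 from 118432901 to 118437352), which activates the complex that starts anaphase, had 13.8, 15.5 and 8.04 CPM in PLD and 2.12, 4.11 and 4.85 CPM in WT. PLD replicate 3 was lowest among PLD and WT replicate 3 highest among WT, and the change was 1.76 ± 0.33 (edgeR adjusted p = 0.0179). Kif23, a kinesin of the dividing cell's midzone, had 64.8, 67.4 and 33.9 CPM against 11, 7.47 and 18.6 CPM (2.17 ± 0.42), and Ccnb1, the gene of cyclin B1, had 6.46, 7.40 and 4.09 CPM against 0.95, 1.43 and 1.65 CPM (2.15 ± 0.50). All 3 lost the call without PLD replicate 1, PLD replicate 2 or WT replicate 2, and Kif23 and Ccnb1 also without WT replicate 1. These 3 of 30 tested mitosis genes rose and 0 fell, the median change was 1.25, and 21 of 30 lay higher in every PLD library than in every WT library, where 14.2% of all genes did so. With WT replicate 3 left out, 16 rose and 0 fell (median 1.70). Plk1 and Cenpa had values below 0 in either fit. DNA replication genes moved less: 0 of 30 were called, 6 did not overlap, and the median was 0.48. By edgeR without WT replicate 3, 10 of them rose, among them Cdt1, a licensing factor (1.07), and Pcna, the sliding clamp (0.55). The inhibitors Cdkn2a and Cdkn2b, which block cyclin D kinases, rose at the same time (2.69 ± 0.44 and 2.75 ± 0.38), Cdkn2b from 2.89, 2.00 and 0.80 CPM in WT to 14.2, 15.3 and 9.03 CPM in PLD with a call in all 6 fits. Cdkn2a rests on 9, 7 and 3 counts in WT and 42, 40 and 32 in PLD, and its call was lost without PLD replicate 1. They are 2 of 10 genes on the list of senescence and CDK inhibitors, of which 3 rose and 2 fell without WT replicate 3. Of 20 p53 targets 3 rose, namely Perp, Zmat3 (0.69 ± 0.15) and the nuclease gene Aen (0.65 ± 0.16), and 0 fell, against 6 and 1 without WT replicate 3. Zmat3 and Aen lost the call without PLD replicate 1, PLD replicate 2 or WT replicate 1, Zmat3 also without WT replicate 2 and Aen also without PLD replicate 3.

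The promoters of the mitosis list share sequence features that the counts did not use. RefSeq promoters (build GRCm38.p6, 250 bases before to 50 after the start) were found for 25 of the 30 genes. The box CCAAT, searched on both strands, was present in 19 (76.0%) of them against 37.9% of 27025 promoters, and TTTGAA, the core of the cell cycle element called CHR, in 18 (72.0%) against 18.1%. These motifs can share no more than an end base, and a match describes letters and shows no binding. The 150 bases before the start are printed for 2 of the genes that were called, one with both motifs and one with CCAAT alone, with the motifs in capitals (Cdc20 at chr4:118437344-118437493 and Kif23 at chr9:61946800-61946949, both on the minus strand and printed 5′ to 3′ along the gene).
Cdc20: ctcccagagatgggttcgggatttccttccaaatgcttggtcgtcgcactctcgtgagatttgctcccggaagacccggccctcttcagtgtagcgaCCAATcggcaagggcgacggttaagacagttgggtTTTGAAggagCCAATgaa
Kif23: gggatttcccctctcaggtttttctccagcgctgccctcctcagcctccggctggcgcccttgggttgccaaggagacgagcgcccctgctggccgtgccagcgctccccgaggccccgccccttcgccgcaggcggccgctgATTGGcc
In Cdc20 the 2 CCAAT boxes begin 53 and 8 bases before the start and TTTGAA begins 18 bases before it. In Kif23 the box begins 7 bases before the start and lies on the other strand, so it is printed as ATTGG. Of the DNA replication list, 24 of 30 genes had a promoter, and the E2F-type sequences TTTCCCGC and TTTGGCGC were each present, on either strand, in 5 (20.8%), against 1.11% and 0.537% of all promoters. These 2 sequences can share no more than end bases.

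A few genes of sterol synthesis rose in PLD at 1 month, and for some of them the difference between genotypes changed by 2 months. Cells make cholesterol from acetyl-CoA through mevalonate. Hmgcs1 encodes an enzyme on the way to mevalonate, Cyp51 a later enzyme, and Insig1 a brake of the pathway that the pathway's own transcription factor SREBP2 induces. Cyp51 had 155, 159 and 130 CPM against 52.6, 42.0 and 64.2 CPM (1.48 ± 0.35), Insig1 had 139, 154 and 140 CPM against 60.2, 60.5 and 48.6 CPM (1.35 ± 0.30), and Hmgcs1 had 148, 166 and 128 CPM against 66.2, 60.7 and 86.9 CPM (1.05 ± 0.27). Each of the 3 lost the call without PLD replicate 1 or 2 or WT replicate 1 or 2, and Hmgcs1 also without PLD replicate 3. Of the 24 genes of the list 4 rose, these 3 among them, 0 fell, the median was 0.76, and 17 of 24 lay higher in every PLD library than in every WT library, where 14.2% of all genes did so. Without WT replicate 3, 11 rose and 0 fell. At 2 months 1 rose and 4 fell, where 19.7% of all genes rose and 20.3% fell, and the median was -0.16. The difference between times was not tested for the list. The difference between the times was itself called for Insig1 (-2.01 ± 0.42, edgeR adjusted p = 0.0274) and Hmgcs1 (-1.57 ± 0.37, 0.0390), and not for Cyp51 (-1.65 ± 0.49, 0.0736). Both interaction calls were lost without any one PLD library of 1 month or without WT replicate 1, and that of Hmgcs1 also without WT replicate 2. Of the list, 16 of 24 genes had a RefSeq promoter. The SREBP-type sequence TCACNCCAC was found in 1 of them (6.25%, against 1.22% of all promoters). That 1 promoter was of Hmgcs1, whose 150 bases before the start (chr13:119690201-119690350, plus strand, GRCm38.p6) are printed with the motif, 137 bases before the start, in capitals.
Hmgcs1: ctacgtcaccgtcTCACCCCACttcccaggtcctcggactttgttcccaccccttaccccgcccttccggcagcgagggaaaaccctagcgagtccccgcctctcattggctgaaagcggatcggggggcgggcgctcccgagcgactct

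**Figure D4:**
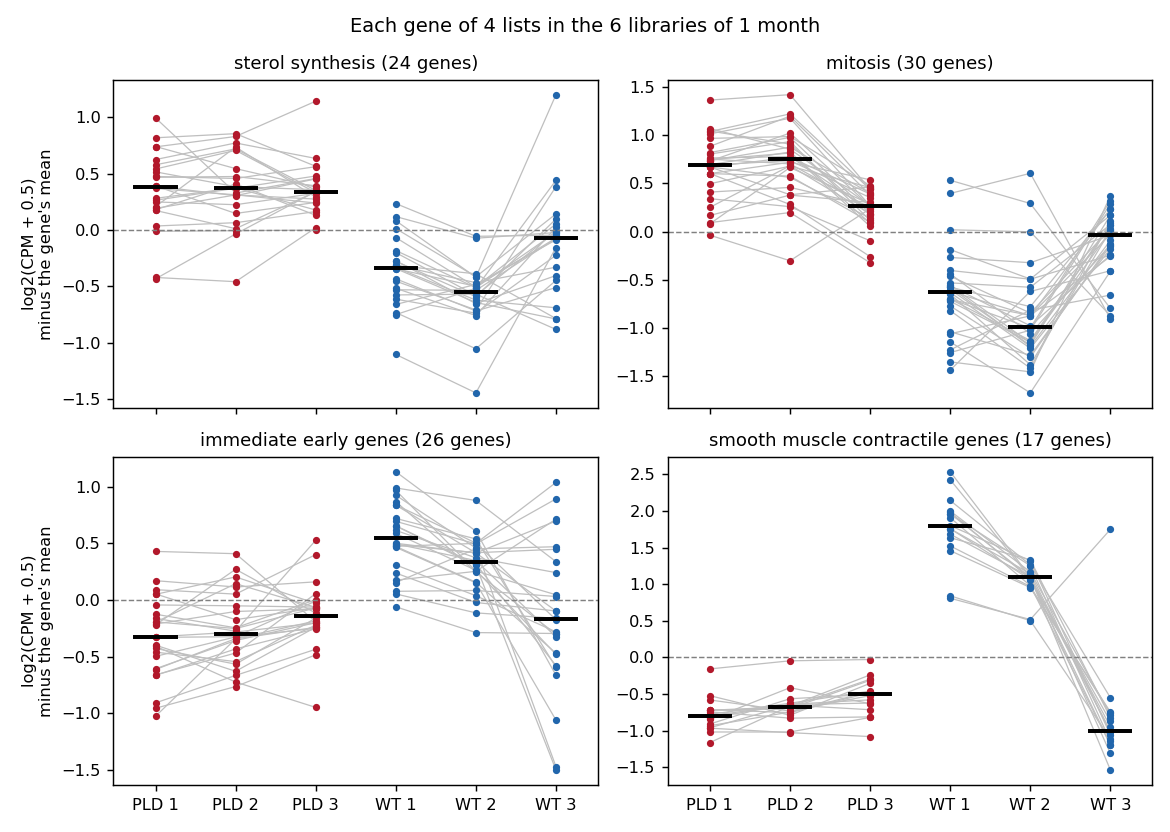
Each gene of 4 lists in each library, as log2(CPM + 0.5) minus the gene's mean over the 6 libraries. Points are genes, grey lines join the values of a gene within a genotype, and black bars are medians over genes. Sterol genes and mitosis genes are above their mean in most PLD values, and smooth muscle genes of WT replicate 3 lie within or below the PLD range, except Kcnma1 and Hspb7 (27.9 and 24.8 CPM in that library).

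Some genes that cells switch on within minutes of a stimulus fell in PLD. Of 26 immediate early genes 0 rose and 4 fell, with a median of -0.58, and without WT replicate 3, 10 fell (median -0.65). Egr1, a zinc finger transcription factor, had 1337, 1582 and 1856 CPM in PLD and 3482, 3544 and 5143 CPM in WT (-1.35 ± 0.28, edgeR adjusted p = 0.0252). Its relatives Egr3 (12.2, 14.0 and 17.1 CPM against 48.3, 44.7 and 30.6 CPM, -1.51 ± 0.23) and Egr2 (-1.05 ± 0.22) fell with it, as did the orphan receptor gene Nr4a2 (-0.90 ± 0.22). Egr3 lost its call without PLD replicate 2, Egr1 and Egr2 without PLD replicate 1 or 2 or WT replicate 1 or 2, and Nr4a2 without any library other than WT replicate 3. Such genes also respond to warming and enzymes during cell isolation, and whether that had a part here was not tested. Of 10 heat shock genes 0 were called by edgeR with all libraries (median 0.14). Without WT replicate 3, 1 of them fell, Hspb1 (-1.26, edgeR adjusted p = 0.00462). Heat shock genes respond to handling as well, and its effect on either list was not tested. Of the 26, 21 had a RefSeq promoter. TGACG, the short form of the cAMP response element, was present in 12 of these (57.1%, against 21.0% of all) and the full palindrome TGACGTCA, which contains it, in 2 (9.52%, against 1.88%).

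Signalling by cAMP and ion transport are processes much studied in cystic ducts. At 1 month 20 of the 22 tested genes of secretin and cAMP signalling had values below 0 (median -0.38). Of these 22 genes 0 rose and 2 fell (9.09%, where 2.02% of all genes fell). Both encode adenylyl cyclases: Adcy9 (23.8, 21.7 and 20.6 CPM against 32.6, 30.7 and 30.5 CPM, -0.50 ± 0.10) and Adcy5 (-1.67 ± 0.41). Adcy5 overlapped between the groups at WT replicate 3, with 53.5, 49.4 and 70.1 CPM in PLD and 274, 215 and 61.9 CPM in WT. Both calls were lost without any library other than WT replicate 3. Without that library 9 of 23 tested cAMP genes fell and 0 rose, where 9.08% of all genes fell. Among 19 genes of ion, bicarbonate and water transport Ano1, the calcium-activated chloride channel, rose (586, 585 and 354 CPM against 171, 139 and 242 CPM, 1.47 ± 0.28) and 0 fell, against 5 and 1 without WT replicate 3. That 1 gene is 5.26% of the list, where 3% of all genes rose. The call of Ano1 was lost without PLD replicate 1 or 2 or WT replicate 1 or 2.

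Among 12 genes of inherited polycystic disease, Pkd2 (ENSMUSG00000034462.9, chromosome 5 from 104459450 to 104505819), the gene of the channel polycystin-2, was called, at 348, 362 and 335 CPM in PLD and 221, 253 and 255 CPM in WT (0.52 ± 0.12, edgeR adjusted p = 0.0330). Its call was lost without any library other than WT replicate 3. Pkd1 had 217, 217 and 272 CPM in PLD and 354, 403 and 207 CPM in WT, and WT replicate 3 lay below all PLD libraries. It was not called with that library (-0.45 ± 0.21) and was lower without it (-0.68, edgeR adjusted p = 0.00799). Pkhd1, the gene of fibrocystin, varied most within WT, at 130, 160 and 725 CPM against 332, 360 and 261 CPM in PLD, so its change was -0.09 ± 0.54 with WT replicate 3 and 1.13 (edgeR adjusted p = 0.0184) without it, a reversal of sign. For Prkcsh, whose protein is a subunit of glucosidase II, PLD libraries had 138, 134 and 128 CPM against 106, 103 and 120 CPM, and for Sec63, of the protein translocation channel, 123, 112 and 132 CPM against 127, 151 and 104 CPM, and neither was called in either fit. Without WT replicate 3, 3 of the 12 rose and 1 fell. Of 31 cilium genes 1 rose (3.23%, near the 3% of all genes), the ciliary transcription factor gene Rfx2 (1.26 ± 0.31, call lost without PLD replicate 1 or 2 or WT replicate 1 or 2), against 2 without WT replicate 3.

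Few genes of chromatin enzymes, the targets of the compounds used elsewhere in the series, were called at 1 month, where 3% of all genes rose and 2.02% fell. The acetyltransferase genes Kat2a (36.1, 35.4 and 37.3 CPM against 35.3, 34 and 41.1 CPM) and Kat2b (84.3, 89.6 and 88.2 against 79.9, 87.5 and 132) were not called, and the demethylase genes Kdm4a, Kdm4b and Kdm4c changed by -0.12 ± 0.12, 0.07 ± 0.14 and -0.26 ± 0.12, also without a call. In 4 lists with 12 acetyltransferases, 16 demethylases, 16 deacetylases and 29 Polycomb and methyltransferase genes, Rnf2, a Polycomb ubiquitin ligase, rose (0.60 ± 0.13) and Hdac9, a deacetylase, fell (-1.59 ± 0.32), and both calls were lost without PLD replicate 1 or 2 or WT replicate 1 or 2. With WT replicate 3 left out, 3, 1, 1 and 5 genes of these lists rose, in that order, and 1 deacetylase gene fell, where 9.74% of all genes rose and 9.08% fell.

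Contractile genes of smooth muscle had lower levels in PLD than in WT replicates 1 and 2. Myh11 (ENSMUSG00000018830.10, chromosome 16 from 14194535 to 14291372), the myosin of smooth muscle, had 712, 671 and 679 CPM in PLD and 4764, 2678 and 693 CPM in WT. WT replicate 3 lay within the PLD range, and the gene was called by a small margin (-1.98 ± 0.50, edgeR adjusted p = 0.0478). Acta2, the smooth muscle actin gene, had 686, 762 and 855 CPM against 4635, 2474 and 515 CPM, and was not called (-1.73 ± 0.55) except without that library (-2.21, edgeR adjusted p = 0.000423). All 17 contractile genes had a value below 0 (median -1.75). With all libraries Myh11, Hspb7 and Kcnma1 fell, the first 2 with calls lost without any library other than WT replicate 3 and Kcnma1 with a call lost without PLD replicate 2. Those calls are set against 2.02% of all genes called lower, and without WT replicate 3 all 17 fell (median -2.20). Kcnma1, which encodes the channel-forming subunit of BK potassium channels, differed from the rest, since WT replicate 3 had its highest level (14.3, 11.6 and 27.9 CPM in WT, 3.83, 3.65 and 3.50 CPM in PLD). The part of muscle cells in these libraries was not tested.

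A few falls kept their call whichever library of 1 month was left out. Kcnab1 (ENSMUSG00000027827.17, chromosome 3 from 64949196 to 65378223), a beta subunit of potassium channels, had 7.26, 6.54 and 8.88 CPM in PLD and 35.3, 28.5 and 32.6 CPM in WT (-2.09 ± 0.24, edgeR adjusted p = 0.00245). Scube3 (ENSMUSG00000038677.14, chromosome 17 from 28142141 to 28174854), a secreted glycoprotein gene, had 17.4, 17.8 and 22.1 CPM against 57.2, 48.9 and 53.8 CPM (-1.48 ± 0.13, edgeR adjusted p = 0.00074). Ank2, the gene of the membrane scaffold ankyrin-2, had 4.06, 2.73 and 3.65 CPM against 18.4, 19.7 and 36.9 CPM (-2.85 ± 0.33). In Kcnab1 and Scube3 the WT libraries stood together, replicate 3 with them, while in Ank2 replicate 3 was the highest. The 3 genes are among the 10 lower genes called in all 6 fits, with Pcp4l1 (-1.86 ± 0.26), Fam13c (-1.27 ± 0.17) and Dtna, the gene of dystrobrevin alpha (-1.44 ± 0.21).

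Macrophage markers and genes of dendritic cells and MHC class II had lower levels in PLD. The lists of neutrophils and of T, NK and B cells showed less. The 18 macrophage and Kupffer cell markers summed to 948, 843 and 1266 CPM in PLD and to 2784, 1718 and 1414 CPM in WT, and their median change was -1.58. One was called, the scavenger receptor gene Cd163 (10.1, 8.52 and 22.9 CPM against 172, 44.9 and 30.4 CPM, -2.58 ± 0.66, edgeR adjusted p = 0.0486), and 11 of 18 lay lower in every PLD library than in every WT library, where 12.3% of all genes did so. With that library left out, 9 fell. All 15 genes of dendritic cells and MHC class II had values below 0, with a median of -1.23. They summed to 704, 611 and 1308 CPM in PLD and to 2656, 1777 and 2538 CPM in WT, without overlap. By edgeR 0 of the 15 were called in either fit, and 7 were lower in every PLD library than in every WT library. In the neutrophil list and the list of T, NK and B cells 0 of 10 and 0 of 9 were called by edgeR, and 1 in each was lower without overlap. Neutrophil markers summed to 30.9, 41.3 and 86.8 CPM in PLD and to 171, 49.8 and 101 CPM in WT, so these groups overlapped. Of the 9 genes of T, NK and B cells 7 had values below 0 and 2 above, with a median of -0.71 (-1.13 without WT replicate 3). Cd4, a gene of T cells and some macrophages, was the one lower in every PLD library (-1.79 ± 0.72, not called). Lck, a kinase gene of T cells, went against that median. It had 3.95, 3.31 and 3.06 CPM in PLD against 1.77, 1.43 and 3 CPM (0.74 ± 0.28, not called). Without WT replicate 3 Lck was higher (1.10, edgeR adjusted p = 0.0106). Ptprc, the pan-leukocyte gene CD45, had 12.9, 15.2 and 30.4 CPM in PLD and 68.2, 46.9 and 61.3 CPM in WT and missed the threshold (-1.59 ± 0.41, edgeR adjusted p = 0.0522), but was called without WT replicate 3 (-1.56, edgeR adjusted p = 0.0346). Outside these lists, Rgs1, which dampens G-protein signals in leukocytes (10.2, 12.4 and 32.2 CPM against 130, 51.4 and 98.1 CPM, -2.35 ± 0.50), and Ms4a6b, a membrane protein gene of leukocytes (-2.02 ± 0.35), fell. Cd163, Rgs1 and Ms4a6b lost the call without PLD replicate 1 or 2, Cd163 and Rgs1 also without WT replicate 1, and Cd163 also without WT replicate 2. PLD replicate 3 was the highest PLD library for Cd163, Ptprc and Rgs1.

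Markers of endothelium and fibroblasts were not called in either direction with all libraries. By edgeR 0 of 17 endothelial, 0 of 10 sinusoidal endothelial and 0 of 20 fibroblast and stellate cell markers passed, and over all genes 4297 had an unadjusted p under 0.05. The medians of the 3 lists were -0.38, 0.65 and -0.30 in that order, with 2, 7 and 6 values above 0. Pecam1, the gene of CD31, had 434, 282 and 536 CPM in PLD and 714, 989 and 321 CPM in WT, overlapping at WT replicate 3, and Col1a1, of collagen I, had its low value in that library alone (402 CPM, against 1799 to 1914 CPM in the other 5). Without WT replicate 3, 4 endothelial and 7 fibroblast markers were lower and 0 higher. Neither interferon response genes (0 of 26, median -0.19) nor cytosolic ribosomal protein genes (0 of 35, median 0.15) had a member called with all libraries, and without WT replicate 3 the counts were 1 and 0.

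The 2 months libraries are separate from those of 1 month, although one model with a shared estimate of spread was fitted to both. At 2 months 7091 genes were called (40.0%), 3490 higher (19.7%) and 3601 lower (20.3%). Of the genes higher at 1 month 473 were also higher at 2 months, which is 88.7% of the 1 month list and 13.6% of the longer 2 month list. Of the genes lower at 1 month 217 were lower at 2 months, 60.4% of the 1 month list and 6.03% of the other. Another 59 higher and 135 lower genes were not called at 2 months. The interaction of genotype and time was called for 1008 genes (5.68%) in all and for 90 of the 892, 61 higher and 29 lower. Krt20 went from 4.24 at 1 month to 7.83 at 2 months, an interaction of 3.59 ± 0.70 (edgeR adjusted p = 0.0225). For Msln the interaction was 2.22 ± 0.40, so these rises were larger at 2 months, whereas for Esr1 (4.70 and 4.19) and Krt23 (1.85 and 1.72) the interaction was not called (-0.51 and -0.13). Atp6v0a4, a subunit of the proton pump, rose by 2.37 ± 0.37 at 1 month and 5.67 at 2 months (3.30), and Gsta4, a glutathione transferase gene, by 1.75 ± 0.42 and 5.02 (3.27). In the other direction Plcb4, a phospholipase gene (-1.02 and -2.97), and Dmtn, the gene of dematin (-1.27 and -3.04), fell further (interactions of -1.95 and -1.78). Gsta4, Plcb4 and Dmtn lost the 1 month call without PLD replicate 1 or 2 or WT replicate 1 or 2.

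**Figure D5:**
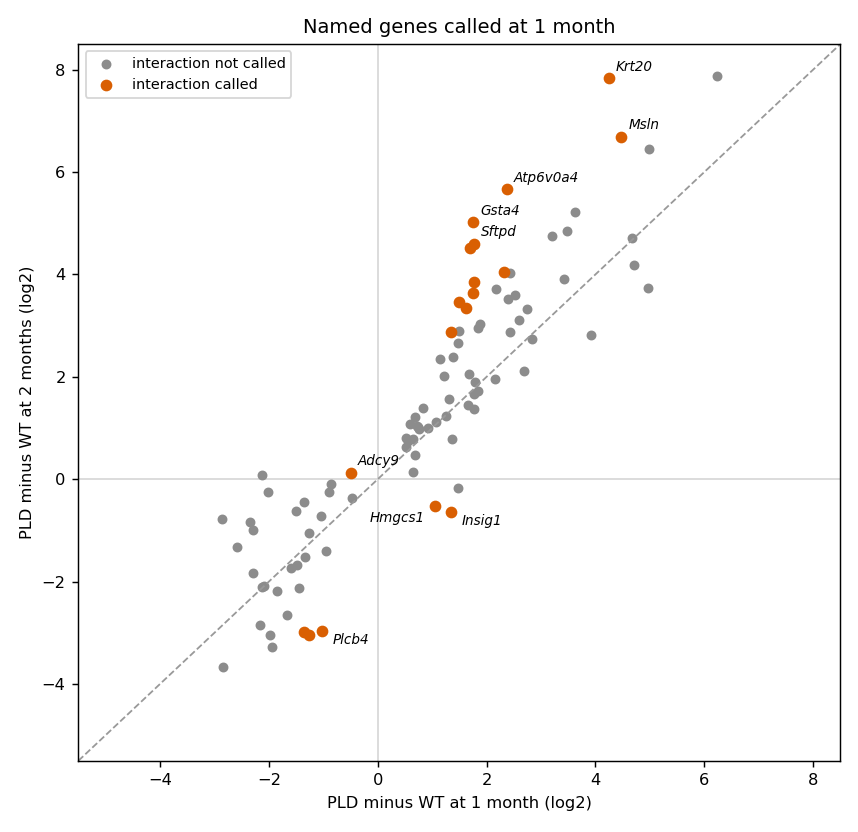
Log2 change, PLD against WT, at 1 month (horizontal) and 2 months (vertical) for the named genes called at 1 month. Orange points are genes whose interaction of genotype and time was called, grey points the others, and the dashed line marks equal change. Krt20, Msln and Gsta4 lie above the line, and the sterol genes Insig1 and Hmgcs1 have values above 1 at 1 month and below 0 at 2 months.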

How the data were processed

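Fragments per gene had been counted by the authors with featureCounts 1.6.0 in paired-end mode without a strand setting on mm10 with the GENCODE vM25 annotation, per the file headers, and the deposited values are raw counts for 55401 genes. The submitters' processing notes also name STAR 2.7.4a, SAMtools 1.12 and DESeq2 1.26.0, without saying what each was used for. The counts of the 12 untreated libraries, 3 per genotype and time, were fitted with edgeR 4.0.16 in R 4.3.3 after filterByExpr and TMM scaling, with one mean per group (8 residual degrees of freedom), and PLD was set against WT at each time and between times by the quasi-likelihood F-test. Dividing a change by the square root of its F gave the SE. Log2 CPM adds a prior count of 2. The scripts were tested on simulated data. Alternatives were limma 3.58.1 (voom), DESeq2 1.42.0, other filters and scaling, the 6 libraries alone, a replicate block and each library left out.

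Members, 59 gene lists (1106 of 1107 genes matched by symbol or synonym) and tests were chosen with earlier results of these data known. Named genes were the 10 largest rises and 10 largest falls among called genes whose libraries did not overlap and whose mean reached 10 CPM, the 10 steadiest in each direction over the fits without one library, up to 4 called members of each list with the smallest p (2 where none was called), a fixed set of marker, disease and chromatin genes, and the 5 largest interactions in each direction. Other genes in the text were named after their values were seen. Predicted genes, pseudogenes and clone names were left out of the naming. A few genes that the rule would name are not reported here.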

Additional observations from a re-analysis of the deposited data

Results flagged for a closer look

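For 22 named genes the difference between PLD and WT itself differed between 1 and 2 months, by the interaction of genotype and time in edgeR (adjusted p under 0.05). Some of the 22, Krt20, Gsta4, Insig1 and Hmgcs1 among them, met a naming rule that required a called interaction. The count of 22 is therefore no measure of how often named genes differed between the times. The values are log2 differences, the change at 2 months minus the change at 1 month, each from 3 libraries per group. Genes whose rise was larger at 2 months were Krt20 (3.59), Atp6v0a4 (3.30), Gsta4 (3.27), the lung surfactant gene Sftpd (2.85), the cytochrome gene Cyp2s1 (2.82), Msln (2.22), Wnt7b (2.08), Klf5 (1.97), Krt19 (1.89), Rab11fip1 (1.72), Lamb3 (1.72) and Perp (1.53). Adcy9 was lower in PLD at 1 month and not called at 2 months (0.63), and Uqcrfs1, of respiratory complex III, was called at 2 months alone (0.65). The sterol genes Insig1 (-2.01) and Hmgcs1 (-1.57) were higher at 1 month and not called at 2 months. Plcb4 (-1.95), Dmtn (-1.78) and Rasgrf2 (-1.63) fell at 1 month and further at 2 months. The endothelial genes Dnase1l3 (-6.24), Stab2 (-5.86) and Pecam1 (-2.55) were not called at 1 month and were lower at 2 months. At 1 month their changes were 1.75 ± 0.77, 1.66 ± 0.81 and -0.69 ± 0.44, and at 2 months -4.49, -4.20 and -3.25. The interactions of Dnase1l3 and Stab2 thus include values above 0 at 1 month. In these 3 genes WT replicate 3 was the lowest library of its group at 1 month, with 12.2, 16.9 and 321 CPM.

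Leaving out a library of 1 month ended 16, 7 and 15 of these 22 calls for PLD replicates 1, 2 and 3 in that order, and 11, 1 and 1 for WT replicates 1, 2 and 3. The cause of the differences between times was not tested.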

How the results depend on the processing

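The counts of called genes moved by more than 1.5 times under several settings, and the cause was not tested. No low count filter gave 2194 (964 higher, 1230 lower, so 43.9% higher against 59.8%), DESeq2 gave 2477 (1207 and 1270, 48.7% higher), and the fit of the 6 libraries alone, with fewer samples to estimate the spread, gave 29 (24 and 5, 82.8% higher). Without WT replicate 3 of 1 month and WT replicate 1 of 2 months there were 3541 (1792 and 1749). Leaving out one library gave 99 to 3485 called genes, 88 to 1804 higher and 11 to 1681 lower. Other size factors in edgeR (876) and limma-voom (956) stayed within 1.5 times, and the median change of all genes stayed between -0.07 and 0.00 in every setting. Genes shared in direction with 2 months numbered 785 higher and 703 lower with no filter, 956 and 718 with DESeq2, 1404 and 1151 without the 2 WT libraries, and 88 to 1485 and 11 to 1195 without one library. The labels do not say whether replicate numbers pair the samples. Deviations of PLD and WT libraries with the same number correlated at -0.005, -0.182 and -0.245 across genes, and those with different numbers at -0.21 to 0.264. Being taken from means of 3 libraries, WT replicate 3 among them, these deviations cannot exclude a pairing. With the replicate number as a block 599 genes were called, 344 higher and 255 lower, and 310 and 135 of them were shared with 2 months. Of 96 named genes called at 1 month, none reversed in any setting, 2 lost the call with other size factors, 5 without a filter, 0 with DESeq2, 9 with limma-voom, 80 in the 6 libraries alone, 26 with the block, and 65, 64, 17, 51, 51 and 0 without PLD replicates 1 to 3 and WT replicates 1 to 3. Depth limits Krt4, Fgf15, Psca, Cdkn2a and Pkp1, which had under 20 counts in each WT library.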

Other observations

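The genes and groups in this section were picked after their values were seen, so the counts and p-values are descriptions. Col7a1, the collagen of anchoring fibrils, had 43.8, 42.3 and 31.1 CPM in PLD and 10.3, 8.49 and 3.25 CPM in WT (2.40 ± 0.37, edgeR adjusted p = 0.00882). Scel, the gene of sciellin in cornified envelopes, had 13.9, 14.9 and 5.82 CPM against 1.12, 0.755 and 2.00 CPM (3.18 ± 0.47), and Lad1, the gene of ladinin of the basement membrane zone, rose by 1.59 ± 0.24. Fzd1, a Frizzled receptor gene, had 190, 223 and 185 CPM against 71.7, 82.0 and 51.0 CPM (1.55 ± 0.19), while Sfrp5, which encodes a secreted antagonist of Wnt ligands, had 1.49, 1.84 and 1.53 CPM against 7.86, 8.64 and 7.5 CPM (-2.30 ± 0.23, edgeR adjusted p = 0.00132). These 5 genes were called in all 6 fits that leave out one library. Phgdh and Psat1, the first steps of serine synthesis, rose by 1.86 ± 0.29 and 1.74 ± 0.25, with Phgdh at 40.4, 39.0 and 22.6 CPM in PLD and 7.04, 8.15 and 13.1 CPM in WT and its call lost without PLD replicate 2.

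At low levels, Cfap44, a gene of motile cilia, had 0.229, 0.443 and 0.937 CPM in PLD and 2.55, 3.55 and 12.8 CPM in WT (-3.53 ± 0.75), and Armc3, an armadillo repeat gene, had 0.4, 0.443 and 0.296 CPM against 2.12, 2.38 and 4.00 CPM (-2.87 ± 0.45). Both calls were lost without PLD replicate 1 or 2. Ncf1 of the phagocyte oxidase (5.09, 5.01 and 9.03 CPM against 40.2, 13.7 and 19.3 CPM, -1.94 ± 0.42) and the receptor gene Tlr7 (2.23, 3.34 and 8.09 CPM against 23.8, 13.7 and 16.4 CPM, -1.98 ± 0.45) fell. Both calls were lost without PLD replicate 1, PLD replicate 2 or WT replicate 1, and that of Tlr7 also without WT replicate 2. At 2 months neither was called (-0.17 and -0.04). Of the genes called at both times 8 changed direction. Sord, the sorbitol dehydrogenase gene, had 29.3, 21.3 and 25.8 CPM in PLD and 71.3, 53.6 and 56.3 CPM in WT at 1 month (-1.25 ± 0.22) and was higher by 0.97 at 2 months, its 1 month call being lost without PLD replicate 1 or 2 or WT replicate 1. Phyh, Mdk, Pnpla7, Colca2, Ppargc1b and D10Jhu81e were likewise lower and then higher, and Cmtm8 was higher (0.72 ± 0.18) and then lower (-0.50), with a 1 month call lost without any library other than WT replicate 3.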
